A study of Mus musculus with 12 samples.

Results

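OAP2 against APAP set 3 libraries of 4T1 cells treated with OAP2 beside 3 libraries of the same cells treated with APAP. These are 6 of the 12 RNA-seq libraries of a study with 4 groups of 3, and they were taken by their treatment labels. All 12 libraries came from wild-type 4T1, an adherent mouse mammary carcinoma line that grows and spreads aggressively when put into mice. The remaining groups were Oxa and a control titled PBS whose treatment label reads DMSO. APAP is the usual short form of acetaminophen, which the labels do not spell out, and OAP2 is a code name. The labels state no dose and no treatment time. The series' design text speaks of cell-derived xenografts while every library is labelled as a cell line, and nothing says whether the 3 libraries of a group came from separate cultures. The p-values therefore measure only the spread between libraries, which may be technical.

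Tumour cells under chemical stress draw on a few well-known programmes. Misfolded protein in the endoplasmic reticulum and lack of amino acids raise ATF4 and its partner CHOP, electrophiles and oxidants release NRF2, and nucleic acids in the wrong compartment start an interferon response. Growth factor signalling through MAP kinases keeps up a set of short-lived transcripts, among them phosphatases of the DUSP family that switch the kinases off again.

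Total counts lay between 64367096 and 71500487 in the 6 libraries compared. Among the 6, OAP2 3 stood apart. It lay at 42.0 on the first principal component of the 6 libraries (33.2% of the variance), where the other 5 lay between -12.6 and -6.18. Its genes departed from their group means with an SD of 0.335 on the log2 scale, against 0.216 to 0.248 in the other 5. PBS 2 is in neither group, but it enters the estimate of the spread, and its SD was 0.398. That of PBS 3 was 0.338, close to that of OAP2 3, and those of the other 4 PBS and Oxa libraries were 0.233 to 0.283. Epithelial markers were abundant, summing to 1082 to 1341 FPKM in the 6 libraries, and 7 of 7 reached an FPKM of 1 in at least 1 of them. Red blood cell markers summed to at most 0.37 FPKM and neutrophil markers to at most 0.54 in these 6, against 230 and 66.5 in PBS 2. FPKM is the number of sequenced fragments scaled to transcript length and to the fragments mapped in that library.

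The question put by this comparison is how cells given OAP2 differed from cells given APAP. Among calls that averaged 2 FPKM or more in either group, predicted genes left out, Lcn2, Ephx1, Isg15 and Slpi rose most, by 2.23-fold to 5.45-fold. Dusp1, Syne3 and Sox9 fell most among them, to 0.420, 0.486 and 0.512 of their APAP level. Of 12036 genes tested, 57 (0.474%) differed at an adjusted p below 0.05 in edgeR's quasi-likelihood test, 33 higher in OAP2 (0.274%) and 24 lower (0.199%). The difference was over 2-fold in 9 of the 57 (0.0748%), 6 of the higher genes (0.0499%) and 3 of the lower (0.0249%). At an unadjusted p below 0.05 there were 1835 genes (15.2%), and for 3093 genes (25.7%) the FPKM values of the groups did not overlap. Changes below are log2 fold changes ± SE with adjusted p from edgeR, over 3 libraries per group. For this comparison, rose and fell mean higher or lower with OAP2 than with APAP, whichever group lay nearer PBS. In bulk RNA, fewer cells that make a transcript and less of it per cell cannot be told apart.

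The number of calls changed with the libraries fitted. Without PBS 2, a library outside the comparison, 916 genes (7.61%) were called, 497 higher (4.13%) and 419 lower (3.48%), and all 57 were among them. A fit of the 6 libraries alone called 286 (2.38%), 167 higher (1.39%) and 119 lower (0.989%), again with all 57. The biological coefficient of variation fell from 18.1% with all 12 libraries to 15.2% without PBS 2. Without OAP2 3, 125 genes were called (1.04%), 83 higher (0.69%) and 42 lower (0.349%), with 52 of the 57 among them. With any other library of the comparison left out, between 0 and 5 genes were called. The 0 was without APAP 2, where 1443 passed an unadjusted p below 0.05. The 5 were without APAP 3, and 4 of them were among the 57. Without APAP 1, OAP2 1 or OAP2 2, 2, 3 and 1 genes were called. Sox9 was called in 5 of these 6 fits with 1 library fewer, Gm43242 in 3, and Csrnp1, Ccbe1, Syne3 and Dsg3 in 2. Another 46 genes were called in 1, the fit without OAP2 3, and Caml, Lats2, Pgs1, Reep5 and Yipf5 in none. All 57 genes kept their direction in every fit that tested them. The FPKM groups of all 57 did not overlap, so fits to these same libraries could hardly turn a sign.

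**Figure D1:**
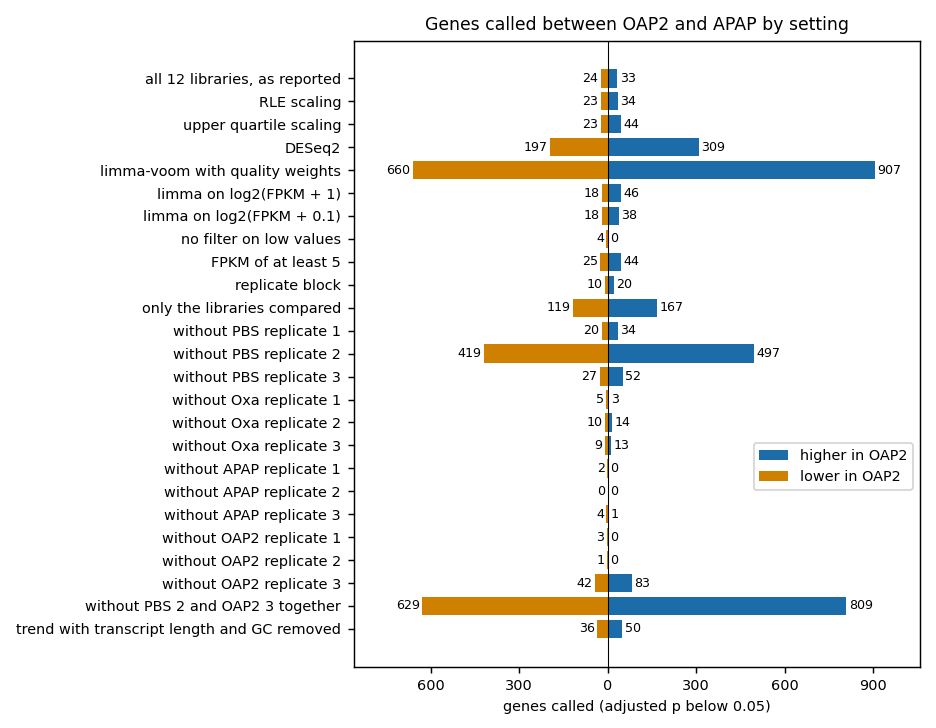
Genes called between OAP2 and APAP (x axis, number of genes, higher in OAP2 to the right and lower to the left) under each setting (y axis). The bars reach 33 and 24 with all 12 libraries, 497 and 419 without PBS 2, and at most 1 and 4 when APAP 1, APAP 2, APAP 3, OAP2 1 or OAP2 2 is left out.

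Among secreted defence proteins, 3 of 7 tested members rose and none fell, beside 0.274% of all genes called higher. Like the other lists, this one was drawn up with earlier results of these data known, so its count is not a test. Lcn2, a lipocalin that withholds iron from bacteria by binding their siderophores (chromosome 2, 32384633 to 32387797), read 3.19, 2.43 and 3.76 FPKM in the APAP libraries and 22.3, 19.21 and 10.67 in the OAP2 libraries. Every OAP2 library lay above every APAP library, and OAP2 3 was the lowest of the OAP2 libraries. The change was 2.45 ± 0.42 (adjusted p = 0.0283), a 5.45-fold rise with a 95% interval of 1.53 to 3.36 on the log2 scale. Slpi, an inhibitor of neutrophil elastase and other serine proteases, read 26.77, 24.14 and 24.84 with APAP and 60.03, 58 and 54.11 with OAP2. Its groups lay far apart and each was tight, and the change was 1.16 ± 0.16 (adjusted p = 0.0147). Clu, a secreted chaperone, read 14.04, 18.03 and 14.43 with APAP and 32.66, 28.8 and 22.61 with OAP2, a change of 0.82 ± 0.16 (adjusted p = 0.0487). Complement C3 stood at 17.2 ± 0.758 and 23.9 ± 7.58 FPKM (SD, n = 3) with overlapping groups (adjusted p = 0.259). Its change of 0.45 ran from 0.26 without OAP2 1 to 0.68 without OAP2 3, where it was called (adjusted p = 0.0179) and the list held 4 rises. The median over the 7 members was 0.45, against 0.00 over all genes. Lcn2 is also a granule protein of neutrophils. The 7 neutrophil markers summed to 0.09 to 0.27 FPKM with APAP and 0.08 to 0.54 with OAP2, and 4 of them (S100a9, Ly6g, Mpo and Retnlg) were at 0 in all 6 libraries. Their part in the values of Lcn2 was not tested.

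**Figure D2:**
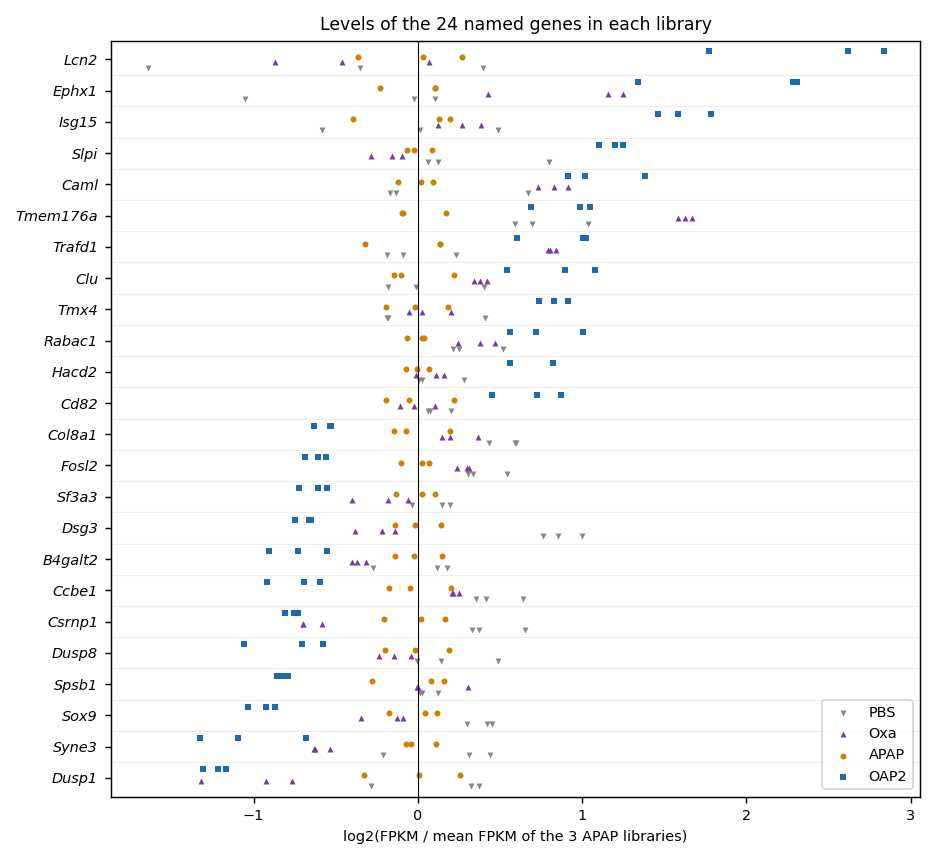
FPKM of the 12 largest rises and 12 largest falls in each of the 12 libraries (points), as log2 of the ratio to the mean of the 3 APAP libraries (x axis). The OAP2 libraries (squares) lie wholly to 1 side of the APAP libraries (circles) for all 24 genes, as the rule for naming them required, and Lcn2 spans 10.67 to 22.3 FPKM in OAP2.

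Isg15 and B2m rose in the groups of interferon and antigen presentation genes, and their promoters are shown because both hold the core of the interferon-stimulated response element, GAAANNGAA on either strand, which is in capitals below. The sequences are the 250 bases before the start in RefSeq GRCm38.p6, read 5′ to 3′ along the gene.

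Isg15, chr4:156200819-156201068, minus strand: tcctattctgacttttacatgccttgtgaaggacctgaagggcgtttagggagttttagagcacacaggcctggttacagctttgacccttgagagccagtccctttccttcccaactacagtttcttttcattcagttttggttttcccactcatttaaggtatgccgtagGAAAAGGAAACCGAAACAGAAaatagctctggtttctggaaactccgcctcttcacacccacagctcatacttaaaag

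B2m, chr2:122147437-122147686, plus strand: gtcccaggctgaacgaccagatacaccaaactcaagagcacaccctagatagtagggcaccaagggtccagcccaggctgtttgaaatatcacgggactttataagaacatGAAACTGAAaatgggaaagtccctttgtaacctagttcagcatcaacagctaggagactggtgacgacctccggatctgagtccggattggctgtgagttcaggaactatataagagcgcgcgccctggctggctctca

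The Isg15 promoter held 3 overlapping matches, with 57, 63 and 69 bases between the match and the start, and the B2m promoter held 1, with 130 bases between. Over the window from 250 bases before to 50 after the start, the core was found in 8.08% of 8356 tested genes with a RefSeq promoter. It was found in 3 of 24 called rises (B2m, Ifi203 and Isg15) and in 2 of 17 called falls (Fosl2 and Lats2). By list, 8 of 14 interferon genes and 4 of 12 antigen presentation genes held it. A match describes these letters only and is not evidence of binding.

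Isg15, a ubiquitin-like protein made in response to interferon (chromosome 4, 156199455 to 156200796), read 6.92, 4.82 and 7.23 FPKM with APAP and 21.81, 17.45 and 18.97 with OAP2. The lowest OAP2 library was above 2 times the highest APAP library, and the change was 1.59 ± 0.25 (adjusted p = 0.0247). It was the only called gene of 16 tested in the interferon list, of which 15 were above 0 with a median of 0.47. Over all 12036 genes tested, 6072 were above 0. The antiviral enzyme Rsad2 stood at 1.76 ± 0.138 and 3.8 ± 1.2 (1.08 ± 0.25, adjusted p = 0.0816), Ifi27 at 10.6 ± 1.33 and 16.8 ± 1.57 (0.64 ± 0.15, 0.0881) and Ifi35 at 5.46 ± 1.33 and 9.97 ± 0.332 (0.84 ± 0.23, 0.116). Without PBS 2, 6 members were called, all higher, these 3 among them, beside 4.13% of all genes called higher. Outside the list, Trafd1, a zinc finger protein induced by interferon that dampens innate signalling, rose from 3.19, 2.32 and 3.19 to 5.89, 5.81 and 4.4 (0.86 ± 0.16, 0.0341). Ifi203 rose by 0.57 ± 0.11 (adjusted p = 0.0341), and its pseudogene-named relative Ifi203-ps by 0.87 ± 0.16 (0.0341). Members of that family are near-identical, so their counts are uncertain.

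B2m, the invariant light chain of MHC class I, read 162.04, 191.03 and 174.42 FPKM with APAP and 278.12, 252.18 and 316.7 with OAP2. The groups did not overlap, and the change was 0.65 ± 0.11 (adjusted p = 0.0252). PBS averaged 230 FPKM, and B2m was not called with OAP2 against PBS (0.31 ± 0.11, adjusted p = 0.118). It was the only call among 15 tested genes of antigen presentation, of which 14 were above 0 with a median of 0.53. Cd74, which chaperones class II molecules of the MHC, stood at 3.87 ± 0.446 and 9.67 ± 3.15 (1.29 ± 0.27, adjusted p = 0.0623). The class I heavy chain H2-K1 stood at 16.3 ± 1.76 and 23.7 ± 4.36 (0.51 ± 0.12, 0.0881) and H2-D1 at 74.0 ± 9.09 and 102 ± 16.5 (0.44 ± 0.13, 0.144). Without PBS 2, 7 members were called, all higher, beside 4.13% of all genes. Macrophage markers summed to 12.3 to 17.5 FPKM with APAP and 16.3 to 20.7 with OAP2, dendritic cell markers to at most 0.67, and their part in these values was not tested. Cd47, the "do not eat me" ligand of macrophage SIRP alpha, rose from 15.61, 17.94 and 15.41 to 27.25, 23.8 and 23.93 (0.59 ± 0.10, 0.0263).

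Ephx1, the microsomal epoxide hydrolase that detoxifies reactive epoxides, was low with APAP at 0.96, 0.76 and 0.96 FPKM and read 4.35, 4.43 and 2.26 with OAP2. OAP2 3 was again the lowest OAP2 library but lay above all APAP libraries, and the change was 2.01 ± 0.35 (adjusted p = 0.0283). Ephx1 was the only call among 22 tested NRF2 targets, of which 20 were above 0 with a median of 0.23. Heme oxygenase Hmox1 stood at 16.3 ± 0.897 and 23.8 ± 0.756 (0.52 ± 0.12, adjusted p = 0.0846), ferritin light chain Ftl1 at 937 ± 20.2 and 1253 ± 149 (0.39 ± 0.10, 0.0993) and the quinone reductase Nqo1 at 2.78 ± 0.68 and 4.88 ± 0.511 (0.78 ± 0.22, 0.124). Without PBS 2, 7 of the 22 were called, all higher, beside 4.13% of all genes, and these 3 were among them. In lipid metabolism, Acadl, which starts mitochondrial oxidation of long-chain acyl-CoA, rose from 17.66, 19.07 and 19.69 to 31.66, 27.22 and 29.39 (0.62 ± 0.10, 0.0247). Acaa1a, the peroxisomal thiolase, rose by 0.52 ± 0.10 (adjusted p = 0.0498) and Hacd2, a dehydratase of fatty acid elongation, by 0.71 ± 0.11 (0.0247). Acadl overlaps the predicted gene Gm15793 on the same strand by 495 bases. Acaa1a overlaps Myd88 on the opposite strand, and the strand used in counting is not given.

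Genes of the endoplasmic reticulum and of traffic to and from the Golgi were among the rises. Ddit3, which encodes CHOP, read 36.45, 30.68 and 35.36 FPKM with APAP and 54.32, 50.45 and 55.67 with OAP2. The groups did not overlap, and the change was 0.62 ± 0.09 (adjusted p = 0.0152). It was the only call among 21 tested genes of the ATF4 and CHOP list, of which 16 were above 0 with a median of 0.29. Ppp1r15a, which restores translation after stress, stood at 62.1 ± 0.985 and 81.7 ± 4.74 (0.37 ± 0.09, adjusted p = 0.0936), and Nupr1 at 38.7 ± 2.03 and 53 ± 8.54 (0.43 ± 0.11, 0.109). Without OAP2 3 the change of Nupr1 was 0.28. None of 22 tested genes of the unfolded protein response was called, 19 were above 0, and the median was 0.27. The protein disulfide isomerase Pdia3 stood at 96.7 ± 8.31 and 138 ± 7.32 (0.48 ± 0.10, 0.0664) and Wfs1 at 8.39 ± 0.513 and 14.3 ± 3.81 (0.74 ± 0.18, 0.0881). Without PBS 2, 9 of the 22 were called and 6 of the ATF4 and CHOP list, all higher, beside 4.13% of all genes.

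Caml, which inserts tail-anchored proteins into the endoplasmic reticulum, rose from 7.67, 6.96 and 8.05 to 15.28, 14.26 and 19.71 (1.09 ± 0.20, adjusted p = 0.0319). Its call was lost without any 1 of the 6 libraries. Tmx4, a membrane thioredoxin of the same organelle, rose from 3.37, 2.93 and 2.59 to 5.58, 5.26 and 4.94 (0.80 ± 0.16, 0.0493). Kdelr1, the receptor that returns escaped chaperones from the Golgi, rose from 17.66, 20.68 and 19.97 to 28.16, 29.53 and 30.27 (0.57 ± 0.09, 0.0247). Its paralog Kdelr2 missed the threshold at 38.6 and 56.6 FPKM (0.52 ± 0.11, adjusted p = 0.0540). Rabac1, a Golgi protein that binds Rab GTPases, rose from 12.18, 12.95 and 13.05 to 20.95, 18.75 and 25.53 (0.74 ± 0.13, 0.0283). Yipf4, Yipf5, Tvp23b and Reep5, membrane proteins of the early secretory pathway, rose by 0.54 to 0.55 with adjusted p from 0.0252 to 0.0370. Against PBS, Tvp23b was called higher with OAP2 (adjusted p = 0.00858), while Yipf4, Yipf5 and Reep5 were not (adjusted p from 0.111 to 0.495). Caml (adjusted p = 0.0158) and Tmx4 (0.0117) were also called higher than with PBS, and Kdelr1 (0.0726) and Rabac1 (0.0674) were not.

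The deposited annotation carries Gene Ontology terms, and those reported were chosen after the values were seen, so no test was made. For the endoplasmic reticulum, any term with these words in its name was counted, locations and processes alike. Such a term was given for 10 of the 33 rises (30.3%) and 2 of the 24 falls (8.33%), beside 9.54% of all tested genes. Integral component of membrane and nucleus were each matched as a single term. Integral component of membrane was given for 19 rises (57.6%) and 4 falls (16.7%), beside 17.2%. The order was the other way for nucleus, given for 7 rises (21.2%) and 14 falls (58.3%), beside 34.3%. Among the 916 genes called without PBS 2, a term naming the endoplasmic reticulum was given for 23.1% of the rises and 6.21% of the falls. Nucleus was given for 32.2% and 44.9%.

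Other rises were proteins of the cell surface and endosomes. Cd82, a tetraspanin, rose from 9.72, 11.77 and 8.84 to 18.53, 16.68 and 13.85 (0.66 ± 0.13, adjusted p = 0.0493). Tmem176a, a membrane protein of the MS4A-like family, rose from 4.41, 5.33 and 4.43 to 9.78, 9.38 and 7.6 (0.89 ± 0.14, 0.0231), and it overlaps Tmem176b on the opposite strand. Steap1, a metalloreductase-like membrane protein, was abundant at 54.0 ± 5.73 and 80.9 ± 3.92 FPKM (0.55 ± 0.10, adjusted p = 0.0299). Laptm4a of the lysosome stood at 89.3 ± 9.03 and 132 ± 12.9 (0.54 ± 0.10, 0.0345). The adhesion protein Nptn, the ubiquitin ligase adaptor Ndfip1, Dcbld1, Sypl, the actin-binding Lima1, the beta-catenin antagonist Cby1 and the zinc finger gene Zkscan14 made up the rest, with changes from 0.43 for Sypl to 1.30 for Zkscan14.

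Feedback genes of MAP kinase signalling were among the falls, and the promoters of Dusp1 and Dusp8 are shown because both held the cAMP response element, TGACGTCA, in capitals below.

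Dusp1, chr17:26508473-26508722, minus strand: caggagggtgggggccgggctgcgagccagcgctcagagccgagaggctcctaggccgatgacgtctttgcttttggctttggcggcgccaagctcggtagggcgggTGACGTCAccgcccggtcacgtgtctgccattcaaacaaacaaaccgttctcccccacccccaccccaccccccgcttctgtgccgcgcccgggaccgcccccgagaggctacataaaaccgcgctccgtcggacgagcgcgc

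Dusp8, chr7:142095285-142095534, minus strand: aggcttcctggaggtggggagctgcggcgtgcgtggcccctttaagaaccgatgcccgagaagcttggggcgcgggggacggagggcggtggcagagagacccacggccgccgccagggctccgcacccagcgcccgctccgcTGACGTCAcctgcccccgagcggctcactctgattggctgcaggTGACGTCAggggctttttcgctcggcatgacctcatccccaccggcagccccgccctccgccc

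These are again the 250 bases before the start in RefSeq GRCm38.p6. The element lies with 135 bases to the start in Dusp1, and with 99 and 55 in Dusp8. It was found in 2 of 17 called falls with a RefSeq promoter, in 0 of 24 called rises and in 3.91% of all 8356 genes. The AP-1 site TGANTCA, bound by FOS and JUN proteins, was found in 4 of the 24 rises, 2 of the 17 falls and 5.89% of all genes.

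Dusp1, a phosphatase that inactivates p38 and JNK (chromosome 17, 26505590 to 26562128), read 3.82, 4.81 and 5.73 FPKM with APAP and 2.13, 1.93 and 2.06 with OAP2. The APAP libraries spread more widely than the OAP2 libraries and none overlapped, and the change was -1.25 ± 0.21 (adjusted p = 0.0263). The position given for Dusp1 overlaps the tested genes Ergic1 and Gm8225 on the opposite strand, by 640 and 956 bases. The RefSeq promoter shown above (26508473 to 26508722) lies inside that position and at neither end. The start used for the promoter is therefore not an end of the gene model that was counted. Dusp8, a phosphatase of JNK, fell from 9.99, 11.33 and 13.1 to 7.04, 7.69 and 5.5 (-0.79 ± 0.14, 0.0299). Fosl2, a FOS-like partner of JUN, fell from 16.61, 15.21 and 17.07 to 10.13, 11.04 and 10.7 (-0.64 ± 0.09, 0.0147). Csrnp1, a nuclear protein induced by AXIN, fell from 18.74, 21.97 and 24.26 to 12.83, 12.38 and 13.09 (-0.79 ± 0.10, 0.0143).

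Of 22 tested genes in the immediate early and MAPK feedback list, 2 fell (Dusp1 and Fosl2) and none rose. Over all genes, 0.199% were called lower and 0.274% higher. The list's median was -0.19, with 6 members above 0 and 16 below. Dusp8 and Csrnp1 were not on that list. The receptor kinase antagonist Spry2 stood at 14.1 ± 1.11 and 10.1 ± 0.777 (-0.51 ± 0.12, adjusted p = 0.0881) and Fosl1 at 75.6 ± 14.8 and 48.0 ± 4.89 (-0.69 ± 0.17, 0.0886). Without PBS 2, 6 members were called lower and 1 higher, beside 3.48% and 4.13% of all genes. The 1 was the stress factor Atf3, picked after its value was seen, at 73.1 and 124 FPKM (0.73 ± 0.32).

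Sox9, a transcription factor of progenitor and mammary stem cells (chromosome 11, 112782224 to 112787760), had the smallest adjusted p of all. It read 15.17, 17.69 and 18.55 FPKM with APAP and 8.37, 9.39 and 9.05 with OAP2. The highest OAP2 library lay well below the lowest APAP library, and the change was -0.97 ± 0.11 (adjusted p = 0.00723). Spsb1, an adaptor of ubiquitin ligases, fell from 1.82, 2.47 and 2.34 to 1.28, 1.25 and 1.22 (-0.85 ± 0.16, 0.0299). Syne3, a nesprin that links the nuclear envelope to the cytoskeleton, fell from 8.9, 9.88 and 8.73 to 5.71, 3.66 and 4.29 (-1.04 ± 0.17, 0.0247).

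Dsg3, a desmosomal cadherin that fell, read 6.82, 7.62 and 6.25 with APAP and 4.4, 4.11 and 4.35 with OAP2 (-0.72 ± 0.10, adjusted p = 0.0147). It was the only call among 22 tested genes of desmosomes and junctions, and the list's median was on the other side of 0 at 0.17. On that list 16 members were above 0 and 6 below, Dsg3 included. Those nearest the threshold after Dsg3 were Epcam at 99.8 ± 9.46 and 148 ± 5.24 FPKM (0.54 ± 0.12, 0.0678) and Cldn7 at 57 ± 4.19 and 83.2 ± 4.36 (0.52 ± 0.15, 0.126). Without PBS 2 the list held 3 rises and 1 fall, beside 4.13% and 3.48% of all genes. The summed level of the 7 epithelial markers was 1082 to 1141 FPKM with APAP and 1233 to 1341 with OAP2. Col8a1, a short-chain collagen, fell from 16.71, 20.1 and 15.92 to 12.15, 12.16 and 11.34 (-0.59 ± 0.11, 0.0286). Ccbe1, a secreted factor that helps activate VEGF-C, fell from 13.24, 15.74 and 12.12 to 7.24, 8.47 and 9.06 (-0.76 ± 0.12, 0.0247). The metalloprotease Adam12 fell by 0.55 on the log2 scale (adjusted p = 0.0283).

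Lats2, a kinase of the Hippo pathway that restrains YAP and is itself a YAP target, fell from 5.06, 5.84 and 6.11 to 4.22, 4.24 and 3.85 (-0.49 ± 0.09, adjusted p = 0.0341). It was the only call among 17 tested YAP and TEAD targets, of which 3 were above 0 with a median of -0.26. Amotl2 stood at 23.9 ± 1.26 and 19.7 ± 1.36 (-0.31 ± 0.09, 0.129), Ankrd1 at 33.7 ± 4.27 and 26.1 ± 1.16 (-0.40 ± 0.11, 0.132) and Crim1 at 17.8 ± 0.855 and 12.7 ± 1.5 (-0.52 ± 0.18, 0.200). The canonical targets Ccn1 and Ccn2, named after their values were seen, had changes of 0.01 ± 0.15 and -0.13 ± 0.42. Without PBS 2, 5 members were called, all lower, beside 3.48% of all genes.

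The remaining falls included proteins that work on RNA and chromatin. Sf3a3, a subunit of the U2 spliceosomal particle, fell from 9.01, 10.61 and 10.05 to 5.99, 6.5 and 6.75 (-0.65 ± 0.12, adjusted p = 0.0283). Tfip11, which takes spliceosomes apart, fell by 0.43 on the log2 scale (adjusted p = 0.0297). The chromatin remodeller Chd3 fell from 20.18, 18.36 and 19.02 to 13.73, 14.46 and 13.7 (-0.49 ± 0.08, 0.0263) and the histone demethylase Kdm5c by 0.54 on the log2 scale (0.0283). B4galt2, a galactosyltransferase, fell from 7.22, 7.83 and 8.8 to 4.79, 5.41 and 4.24 (-0.75 ± 0.13, 0.0283). The gene model overlaps Slc6a9 on the opposite strand, and Ccdc24 on the same strand by 3298 bases. Mars1, the cytosolic methionyl-tRNA synthetase, fell by 0.48 on the log2 scale (adjusted p = 0.0252). Its gene overlaps that of Ddit3 by 68 bases on the opposite strand, and the pair moved in opposite directions. In all, 12 of the 57 called genes overlap another tested gene. Padi1, which converts protein arginine to citrulline, fell from 14.52, 14.26 and 15.91 to 9.57, 10.1 and 10.54 (-0.59 ± 0.09, 0.0211). The small GTPase Arl4c, the exchange factor Fgd3 and Pgs1, an enzyme of cardiolipin synthesis, fell by 0.58, 0.54 and 0.50 on the log2 scale. The largest fall of all was in a predicted gene of unknown role, Gm43242, from 2.42, 2.57 and 2.4 to 0.82, 0.56 and 0.63 (-1.90 ± 0.24, 0.0143).

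Most of the 31 pathway lists held no call, and the lists were chosen with earlier results of these data known. Inflammatory chemokines and cytokines (16 tested, median 0.11) ranged from Lif at 40.3 ± 3.44 and 25.1 ± 4.73 FPKM (-0.71 ± 0.19, adjusted p = 0.110) to Ccl20 at 0.377 and 0.843 (1.12 ± 0.64, 0.433), which was picked for its value. In the prostaglandin pathway, on which acetaminophen acts, 0 of 9 tested genes were called. The cyclooxygenase Ptgs2 stood at 91.6 and 91.1 FPKM and Ptgs1 at 13.0 and 14.2, both named after their values were seen, while the phospholipase Pla2g4a stood at 17.0 ± 0.798 and 13.1 ± 1.57 (-0.40 ± 0.10, 0.0891). Of 21 genes that conjugate or oxidise paracetamol, 6 were tested and 0 called, with Papss1 at 5.07 ± 0.242 and 7.43 ± 0.907 (0.52 ± 0.18, 0.198). The metallothionein Mt2 stood at 48.6 ± 1.43 and 89.4 ± 8.15 (0.85 ± 0.19, 0.0749). Of 21 p53 targets 0 were called, and Plk2 stood nearest the threshold at 42.1 ± 3.19 and 32.7 ± 0.991 (-0.39 ± 0.08, 0.0616). DNA repair (31 tested, median 0.03), replication (30, -0.04) and mitosis (29, -0.01) held none. Without PBS 2 these 3 lists held 3, 1 and 2 calls, all higher, and p53 targets held 2 higher and 1 lower. In that fit, 4.13% of all genes tested were called higher and 3.48% lower. With all 12 libraries, 15.2% of all genes passed an unadjusted p below 0.05.

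**Figure D3:**
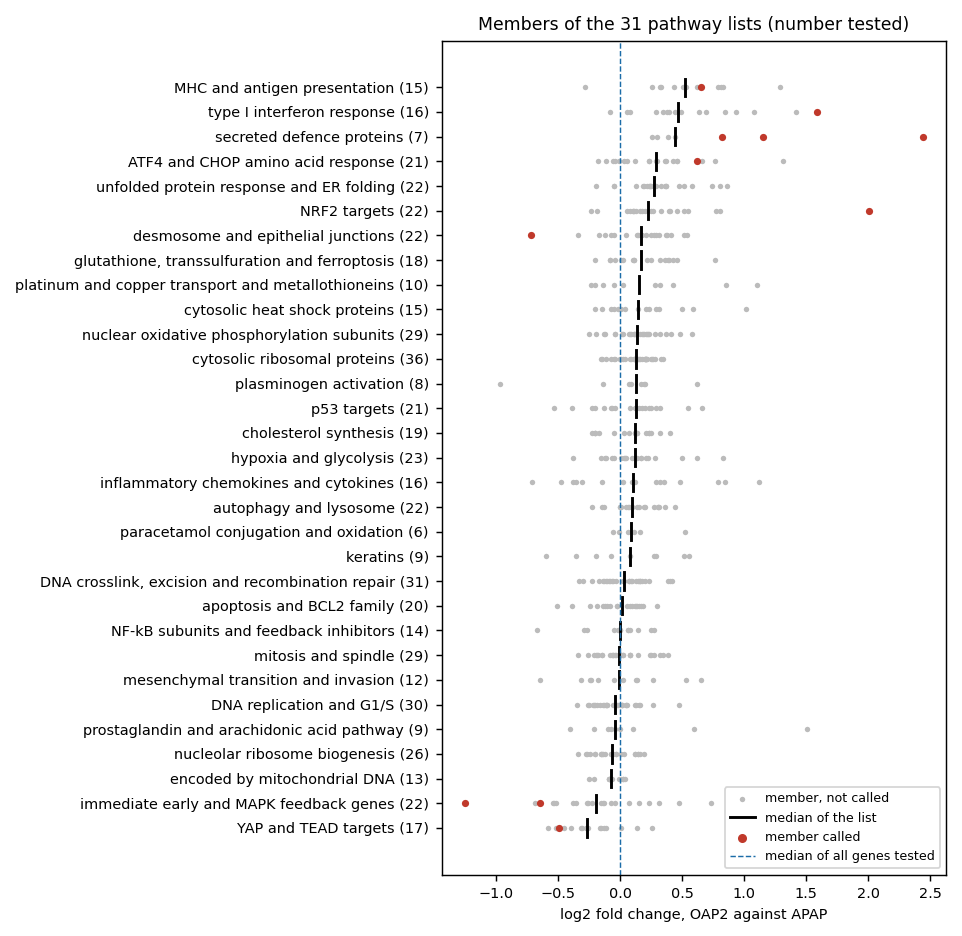
Log2 fold change of OAP2 against APAP (x axis) for each tested member (points) of 31 pathway lists (y axis, number tested in brackets), with called members in red, the list's median as a black bar and the median of all genes as a dashed line. The antigen presentation list has the highest median at 0.53 and the YAP and TEAD list the lowest at -0.26.

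Of 36 cytosolic ribosomal protein genes tested, 30 were above 0 with a median of 0.13, none was called by edgeR with all 12 libraries or without PBS 2, and the change of Rpl27 went from 0.34 ± 0.18 to 0.03 without OAP2 3. These are short transcripts. In OAP2 3 the fifth of genes with the shortest transcripts lay 0.367 higher than the fifth with the longest, relative to the mean of the APAP libraries on the log2(FPKM + 1) scale. In the other 5 libraries that difference ran from -0.0969 to 0.0606. Across 12024 genes with a known length, Spearman's rho of the change with transcript length was -0.177, a description over genes that share the same libraries. The called rises had a median length of 1810 bases and the called falls 4276, beside 2756 for all tested genes. With the trend in length and GC content taken out of each library, 86 genes were called, 49 of the 57 among them.

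**Figure D4:**
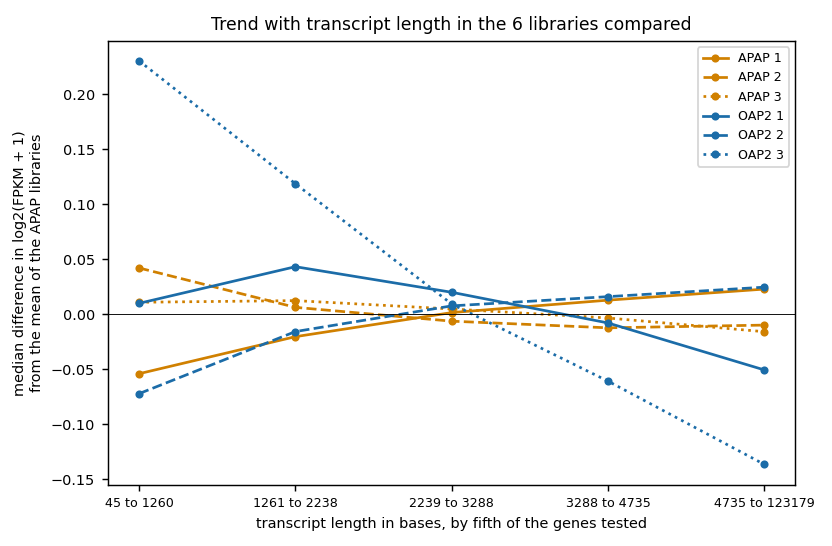
Median difference in log2(FPKM + 1) from the mean of the APAP libraries (y axis) for genes in 5 bins of transcript length in bases (x axis), 1 line per library. OAP2 3 runs from 0.231 in the shortest to -0.137 in the longest bin, while the other 5 libraries stay between -0.0722 and 0.0433.

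The Oxa and PBS libraries give a second treated group beside its control, with no library in common with OAP2 against APAP. Both comparisons were tested in the same fit of all 12 libraries and share its estimate of the spread, so their calls are not independent. That comparison called 1217 genes (10.1%), 644 higher with Oxa (5.35%) and 573 lower (4.76%). Of the 24 genes that fell with OAP2, 21 were also below 0 with Oxa and 9 were called lower there, which is 37.5% of the 24 and 1.57% of the 573. Of the 33 rises, 21 were also above 0 and 7 were called higher, which is 21.2% of the 33 and 1.09% of the 644. Over all genes tested, 7218 had the same sign in both comparisons (60%). The median change of the falls was -0.62 with OAP2 and -0.30 with Oxa, and of the rises 0.62 and 0.11. These genes were picked by their change with OAP2 and not with Oxa, which by itself can make the former medians larger.

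Dusp1 was at -1.25 in OAP2 against APAP and at -1.14 ± 0.21 (adjusted p = 0.00645) in Oxa against PBS, where it read 5.99, 3.93 and 6.19 FPKM with PBS and 2.52, 2.82 and 1.92 with Oxa. Csrnp1 and Dsg3 both changed by -1.11 ± 0.10 with Oxa (adjusted p = 0.000241 for each). Dsg3 read 11.71, 13.77 and 12.45 FPKM in PBS and 5.93, 5.28 and 6.25 in Oxa, so every PBS library lay above all APAP libraries. Among the rises, Ephx1 (1.21 ± 0.35, 0.0419), Tmem176a (0.85 ± 0.13, 0.00371), Trafd1 (0.83 ± 0.16, 0.00850), Ddit3 (0.46 ± 0.09, 0.00766) and Zkscan14 (1.28 ± 0.24, 0.00660) were called higher with Oxa too. The call of Ephx1 with Oxa held in 1 of 6 fits with a PBS or Oxa library left out, and those of the other 7 genes held in all 6. For these genes the test of the difference between the comparisons gave adjusted p from 0.218 to 0.985. Tmem176a averaged 8.15 FPKM with PBS, 4.72 with APAP, 8.92 with OAP2 and 14.6 with Oxa. With OAP2 it was not called against PBS (0.14 ± 0.13, adjusted p = 0.609) and was lower than with Oxa (-0.70 ± 0.13, 0.00504). Ephx1, Trafd1, Ddit3 and Zkscan14 were called higher with OAP2 than with PBS (adjusted p from 0.000654 to 0.00890).

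Slpi, Lcn2 and Isg15 were not called higher with Oxa. Slpi was called in the opposite direction there, at 27.53, 43.96 and 26.38 FPKM with PBS and 23.57, 20.69 and 22.65 with Oxa (-0.54 ± 0.16, adjusted p = 0.0471). PBS 2 was the highest of these, and without it the change was -0.27 (adjusted p = 0.0442). The call was lost without any 1 Oxa library (adjusted p from 0.0941 to 0.147). Without PBS 2 the test of the difference gave 1.42 (adjusted p = 0.000252) beside 1.70 (0.0419) with it. Lcn2 stood at 2.45, 4.12 and 1 with PBS and 2.27, 1.71 and 3.28 with Oxa (-0.07 ± 0.41, 0.934). Without PBS 2 that value was 0.47 and without PBS 3 it was -0.45, called in neither fit. Its difference between the comparisons was 2.51 (adjusted p = 0.0723), and 1.97 (0.0387) without PBS 2. Isg15 did not pass that test in either fit (1.36, 0.0956, and 1.07, 0.0584).

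The difference passed for 66 genes in all (0.548%), 6 of them among the 33 rises and 0 among the 24 falls. It contains the OAP2 against APAP change by which the rises and falls were picked, so these counts are not independent of that choice. It passed for no gene in 8 of the 12 fits with 1 library left out, by edgeR (1302 to 1987 genes at an unadjusted p below 0.05). The 6 were Slpi, the secretory pathway genes Kdelr1, Tvp23b and Yipf5, Steap1 and Ndfip1, whose changes with Oxa lay between -0.54 and -0.16. Kdelr1, for example, was at 22.98, 25.35 and 23.7 FPKM with PBS and 21.18, 19.85 and 19.45 with Oxa, a change of -0.24 ± 0.09 (adjusted p = 0.101) that differed from its rise with OAP2 by 0.81 (adjusted p = 0.0419). Without PBS 2 the difference passed for 606 genes (5.03%), 293 higher (2.43%) and 313 lower (2.6%), with 14 of the 33 rises and 4 of the 24 falls among them.

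**Figure D5:**
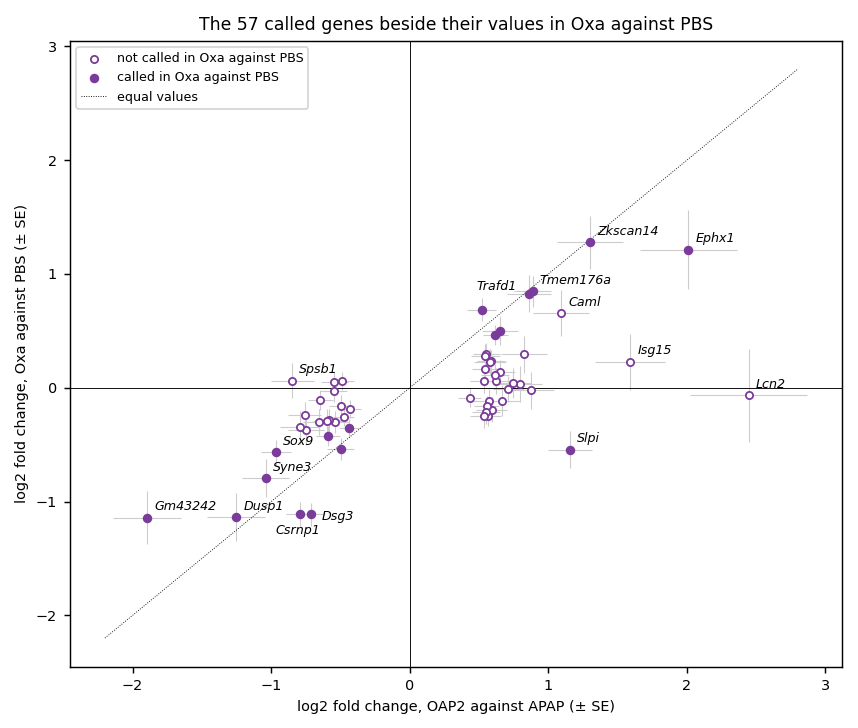
Log2 fold change of Oxa against PBS (y axis) beside that of OAP2 against APAP (x axis) for the 57 genes called in the latter (points, ± SE), filled where called in both. Dusp1, Zkscan14 and Tmem176a lie near the line of equal values, and Lcn2 and Slpi lie below it at -0.07 and -0.54 with all 12 libraries, which become 0.47 and -0.27 without PBS 2.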

How the data were processed

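The deposited table gives a count and an FPKM value per gene and library, per the file headers. The deposited counts are the authors' unscaled estimated counts, given as whole numbers. The authors' FPKM values were used for levels. Tools listed without roles in the submitters' processing notes are HISAT2 2.2.1, StringTie 2.1.6, edgeR, DESeq2 and cutadapt 1.9, and the build listed is mm9. Of 29864 genes matched to GENCODE M21, 90.9% had their GRCm38 position, so positions are taken as GRCm38. Among the 122 matched genes that were named or called, 94 had the same position. The control columns are headed CON and were matched to the PBS titles by inference.

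A gene was tested when 3 or more of the 12 libraries had an FPKM of 1 or more, which held for 12036 of 29937. The model was a quasi-likelihood fit in edgeR 4.0.16 under R 4.3.3, with TMM scaling of the counts, a mean for each of the 4 groups and 2-sided p-values adjusted by Benjamini-Hochberg. Genes with an adjusted p below 0.05 were called. The SE was approximated from the log2 fold change and the F statistic. Depth was 64071751 to 71500487 counts.

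The comparison, gene lists, rules and alternatives were chosen with earlier results of these data known. Named genes are the up to 12 strongest rises and 12 strongest falls among calls with non-overlapping FPKM groups, without predicted genes and pseudogenes, where the higher group averaged an FPKM of 2 or more. Each list names up to 4 members by F where any was called, otherwise up to 2. Lists are described by counts and medians and were not tested. Alternatives were DESeq2 1.42.0, limma 3.58.1, other scalings, filters and pseudocounts, and fits with libraries left out. Promoters came from RefSeq GRCm38.p6, which held 41 of the 57 called genes. A few results are not reported here.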

Additional observations from a re-analysis of the deposited data

How the results depend on the processing

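The direction of all 57 genes called between OAP2 and APAP held under each alternative that tested them, while the number called moved widely. As the FPKM groups of all 57 did not overlap, the alternatives could hardly turn a direction, and that it held is no added support. RLE or upper quartile scaling, limma on log2(FPKM + 1) or log2(FPKM + 0.1) and a minimum FPKM of 5 gave 56 to 69 calls, of which 47 to 56 of the 57 remained (51 of the 51 tested at FPKM 5). The split into higher and lower was 44 and 23 with upper quartile scaling, 46 and 18 with log2(FPKM + 1) and 38 and 18 with log2(FPKM + 0.1), beside 33 and 24. DESeq2 called 506 genes (309 higher, 197 lower) and limma-voom with quality weights 1567 (907, 660). With no filter on low values 4 were called (0, 4), and a fit of only the 6 libraries called 286 (167, 119). For Oxa against PBS, with 1217 calls, these gave 2015, 4394, 701 and 523 (its own 6 libraries). For the difference between the comparisons, with 66 calls, DESeq2 gave 495, limma-voom 1317, limma on log2(FPKM + 1) 25 and on log2(FPKM + 0.1) 2, and no filter 0 (2645 at an unadjusted p below 0.05 in edgeR).

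With 1 library left out, calls between OAP2 and APAP ran from 0 to 916, from 0 to 497 higher and from 0 to 419 lower. Those for Oxa against PBS ran from 477 (without Oxa 2) to 3066 (without PBS 2), and those for the difference from 0 (without any 1 Oxa or APAP library, OAP2 1 or OAP2 2, by edgeR, with 1302 to 1987 genes at an unadjusted p below 0.05) to 606 (without PBS 2). Without Oxa 1, 2 or 3, which are not in the comparison, OAP2 against APAP called 8, 24 and 22 genes. Without PBS 1 or PBS 3 it called 54 and 79.

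For OAP2 against APAP, the fits without an Oxa library, PBS 1 or PBS 3 were chosen after seeing the data. The same holds for Oxa against PBS in the fits without an APAP or OAP2 library. Also chosen after seeing the data were a fit without PBS 2 and OAP2 3 together and a fit with the length and GC trend removed. The last pair gave 1438 calls (809, 629) and 86 calls (50, 36) between OAP2 and APAP, 4258 and 1515 for Oxa against PBS, and 1248 and 103 for the difference. The cause of these shifts was not tested.

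Replicate numbers did not pair the libraries: same-numbered APAP and OAP2 libraries had correlations of -0.0757, -0.0441 and -0.0698 in their deviations from the group mean. With a replicate block all the same, 30 genes were called (20, 10), 26 of them among the 57, with 1097 for Oxa against PBS and 0 for the difference (1760 at an unadjusted p below 0.05).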

Other observations

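Several genes just missed the threshold in OAP2 against APAP with all 12 libraries and are given as values. Among the 10 genes next by p, Tmem86a stood at 4.11 and 8.60 FPKM (1.03 ± 0.22, adjusted p = 0.0600 in edgeR), the aldehyde dehydrogenase Aldh3b1 at 2.42 and 4.42 (0.84 ± 0.18) and the membrane-bound chemokine Cx3cl1 at 2.52 and 4.45 (0.79 ± 0.16, adjusted p = 0.0580). Fibronectin, Fn1, was the only one of the 10 lower with OAP2, at 298 and 195 FPKM (-0.64 ± 0.13, adjusted p = 0.0600).

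Serpinb2, an inhibitor of plasminogen activators, had the lowest value of the 8 tested genes of plasminogen activation at -0.96 ± 0.22 (adjusted p = 0.0841), with the value moving between -1.31 and -0.74 as 1 of the 6 libraries was left out, and called without OAP2 3 (adjusted p = 0.0176). The mesenchymal filament gene Vim was at 0.53 ± 0.15 (adjusted p = 0.127). The small heat shock protein Cryab was at 1.01 ± 0.31 (adjusted p = 0.150). Genes of mitochondrial DNA (13 tested, 4 above 0) had a median of -0.07, and mitochondrial transcripts took 4.21%, 3.27% and 2.75% of the counts of OAP2 1 to 3 against 3.70%, 3.45% and 3.85% in APAP 1 to 3.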
